A study of Mus musculus with 34 samples.

Results

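The genes described here are 10 enzymes that add methyl groups to lysine 36 of histone H3 (H3K36) or remove them, followed at the transcript level in brown preadipocytes. They were chosen by name, as 6 methyltransferases (*Nsd1*, *Nsd2*, *Nsd3*, *Ash1l*, *Smyd2*, and *Setd2*) and 4 demethylases (*Kdm2a*, *Kdm2b*, *Kdm4a*, and *Kdm4b*), and are 10 of 23109 genes listed in the files. The study asked how loss of H3K36 methylation affects adipogenesis, and the question put to these genes was whether the level of any of them differed when another writer was knocked down or when H3K36 methylation was blocked. RNA-Seq gave 14 libraries, 1 per condition, so no difference between conditions has a replicate check and no test was made.

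Methylation of H3K36 is built up in steps. Enzymes of the NSD family, Ash1l, and Smyd2 are known for mono- and dimethylation (H3K36me1 and H3K36me2), whereas Setd2 travels with elongating RNA polymerase II and is the main source of trimethylation (H3K36me3) in gene bodies. Kdm2a and Kdm2b remove the lower methylation states and are directed to CpG islands by their CXXC zinc finger, and Kdm4a and Kdm4b remove trimethylation from H3K9 and H3K36. H3K36me2 limits the spread of H3K27me3, the repressive mark of Polycomb, and a histone H3 with methionine in place of lysine 36 (K36M) inhibits H3K36 methyltransferases.

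All cells came from C57BL/6J brown preadipocytes, the precursors of heat-producing fat cells, which had been immortalized with SV40T. In the first experiment, cells made to express FLAG-tagged histone H3.3, WT or K36M, from a retrovirus were collected at D0, before adipogenesis, at D2, and at D7. In the second experiment, the same kinds of cells also carried ectopic PPARγ, the master regulator of adipogenesis (written PPARg here for libraries), and were given DMSO or its ligand rosiglitazone (Rosi). In the third experiment, cells carried a lentivirus with either a control shRNA (Ctrl) or one that targets *Nsd2* (KD) and were collected at D0 and D2. The cells are a cultured, immortalized population, and the WT and Ctrl cells are themselves infected cells. The labels give DMSO as 0 h and Rosi as 24 h, whereas the study describes the same treatment time for both, so whether the DMSO cells are a time-matched vehicle control is not certain. The labels also describe floxed glucocorticoid receptor alleles and a Vec or Cre virus, whereas the methods describe cells of newborn WT mice. The receptor gene *Nr3c1* was listed at 10.1 to 30.9 RPKM (reads per unit of transcript length, scaled to library depth) in the 14 libraries.

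Mapped reads, recovered from the RPKM, ranged from 12213559 to 24365867 per library, and 3 reads on a transcript of 1 kb were worth 0.123 to 0.246 RPKM. The members had 186 to 5562 reads each, so counting error was small, and every interval given below covers counting error only. Summed preadipocyte markers (5 genes) spanned 48.2 to 1804 RPKM, and summed brown adipocyte markers (6 genes) spanned 27.5 RPKM in Ctrl at D0 to 3359 RPKM in WT at D2. Of the latter, *Fabp4* alone had 3249 RPKM in WT at D2, so the sum mostly follows this 1 gene where it is high. The defining brown genes *Ucp1* and *Cidea* stayed at or under 0.19 and 0.097 RPKM, so the brown identity in the labels was not visible in their transcripts. Immune markers (*Ptprc* and *Adgre1*) summed to at most 0.11 RPKM, endothelial markers to at most 0.93 RPKM, and skeletal muscle markers to at most 3.95 RPKM. Long transcripts were listed lower in the PPARg libraries. The median of 931 genes with a transcript of 6 kb or longer lay between -0.56 and -0.22 there, on a log2 scale relative to each gene's median over libraries, and between -0.07 and 0.33 in the other 10 libraries. Genes under 2 kb lay between -0.14 and 0.09 in all 14 libraries. As the members run from 1605 to 12784 bases, log2 ratios less the median of all genes of the same length class are given where the 2 scales part.

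*Nsd2* encodes an H3K36 dimethyltransferase also named Whsc1 (transcript NM_175231, 6916 bases, mm9 chr5:34163374-34240624, plus strand). It was listed at 17.5, 24.5, and 18.7 RPKM in WT cells at D0, D2, and D7, and at 30.9, 23.0, and 22.4 RPKM in K36M cells. With PPARγ it was at 16.8 RPKM (DMSO) and 16.7 RPKM (Rosi) in WT cells, whereas K36M cells had 18.4 and 17.5 RPKM. In the knockdown experiment it was at 19.9 and 29.0 RPKM in Ctrl cells (D0 and D2) and at 5.85 and 7.01 RPKM in KD cells. Both KD libraries lay below every other library, K36M cells at D0 lay highest, and the 4 PPARg libraries differed little from each other. *Nsd2* was the lowest of the 10 members in the 2 KD libraries and ranked between 2nd and 8th in the other 12.

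*Nsd1* encodes the founding member of the family (NM_008739, 12784 bases, chr13:55311143-55419686, plus strand). Its RPKM was 18.3, 21.2, and 18.4 at D0, D2, and D7 in WT cells, and 21.4, 20.1, and 16.0 at the same times in K36M cells. With PPARγ it was 9.35 (DMSO) and 13.4 (Rosi) in WT cells, whereas K36M cells had 11.7 and 12.1. It was 14.7 and 21.6 in Ctrl cells and 12.6 and 18.7 in KD cells at D0 and D2. The 3 lowest values of *Nsd1* were in PPARg libraries, where long transcripts as a class were listed lower, and its level was higher at D2 than at D0 in both Ctrl and KD cells.

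*Nsd3*, also named *Whsc1l1*, is listed with a short transcript (NM_001001735, 3630 bases, chr8:26712073-26830139, plus strand) and a long one of 9945 bases (NM_001081269), and the short one had the higher mean. Textbook knowledge places the catalytic SET domain in the long form only. The short form was at 21.8, 18.0, and 20.7 RPKM in WT cells and 21.2, 18.6, and 25.3 RPKM in K36M cells at D0, D2, and D7. It was at 10.3 and 13.7 RPKM in WT cells with PPARγ (DMSO and Rosi), at 9.63 and 10.1 RPKM in the matching K36M cells, and at 14.8, 15.7, 12.6, and 18.2 RPKM in Ctrl D0, Ctrl D2, KD D0, and KD D2. The long form was listed at 54.8% to 71.5% of the short one in the 14 libraries, with the highest share in KD cells at D2 (13.0 against 18.2 RPKM). Reads over exons that 2 forms share cannot be assigned to 1 of them.

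*Ash1l* encodes a dimethyltransferase that opposes Polycomb (NM_138679, 11270 bases, chr3:88769734-88883295, plus strand). Its RPKM was 19.9, 18.8, and 16.8 at D0, D2, and D7 in WT cells, and 19.5, 17.8, and 17.1 at the same times in K36M cells. It was 7.61, 11.5, 8.18, and 8.72 in WT DMSO, WT Rosi, K36M DMSO, and K36M Rosi cells with PPARγ. It was 13.1 and 14.4 in Ctrl cells and 13.0 and 18.1 in KD cells. All 4 PPARg libraries lay below the other 10, which was also so for *Setd2*.

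*Setd2* encodes the H3K36me3 writer (NM_001081340, 8350 bases, chr9:110435101-110521137, plus strand). Its RPKM was 18.1, 16.0, and 15.8 at D0, D2, and D7 in WT cells, and 20.5, 14.9, and 16.9 at the same times in K36M cells. With PPARγ it was 8.19, 11.3, 9.21, and 10.1 in the order WT DMSO, WT Rosi, K36M DMSO, K36M Rosi. It was 14.4 and 15.6 in Ctrl cells and 12.4 and 17.2 in KD cells at D0 and D2. *Setd2* varied with *Ash1l* across the libraries, but the 2 levels were not equal in each. At D2 *Setd2* was below *Ash1l* in WT cells (16.0 against 18.8 RPKM) and above it in Ctrl cells (15.6 against 14.4 RPKM).

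*Smyd2* encodes a SET and MYND domain enzyme with H3K36 and non-histone substrates, and has the shortest transcript of the 10 (NM_026796, 1605 bases, chr1:191704371-191746242, minus strand). It was at 44.6, 30.1, and 26.5 RPKM in WT cells and 36.5, 34.3, and 28.6 RPKM in K36M cells at D0, D2, and D7. It was at 40.3, 32.5, 34.8, and 31.1 RPKM in the PPARg libraries in the same order as above. It was at 32.6 and 28.8 RPKM in Ctrl cells and 22.8 and 16.5 RPKM in KD cells. *Smyd2* was the most abundant member in 9 of 14 libraries, and both KD libraries held its lowest values.

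Among the demethylases, *Kdm2a* (NM_001001984, 7265 bases, chr19:4316170-4398266, minus strand) was at 25.5, 20.7, and 23.6 RPKM in WT cells and 20.3, 20.7, and 27.9 RPKM in K36M cells at D0, D2, and D7. It was at 18.8, 22.0, 16.9, and 12.5 RPKM in the PPARg libraries, at 23.1 and 17.7 RPKM in Ctrl cells, and at 32.0 and 25.8 RPKM in KD cells. The highest value was in KD cells at D0, where *Kdm2a* was the most abundant member, and the lowest in K36M cells with PPARγ and Rosi. Its paralog *Kdm2b* (NM_013910, 3519 bases, chr5:123320677-123465089, minus strand) had the same 2 extremes, at 12.2 and 4.17 RPKM. *Kdm2b* was otherwise at 5.81, 6.49, and 5.46 RPKM in WT cells and 7.01, 6.15, and 5.19 RPKM in K36M cells at D0, D2, and D7. It was at 7.72, 7.09, and 6.46 RPKM in the other PPARg libraries, at 8.79 and 8.26 RPKM in Ctrl cells, and at 11.9 RPKM in KD cells at D2. Kdm2b is also known as the subunit that brings a variant Polycomb complex to CpG islands.

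*Kdm4a* (NM_001161823, 4616 bases, chr4:117809562-117852648, minus strand) was at 34.4, 38.2, and 27.3 RPKM in WT cells and 35.7, 31.7, and 28.3 RPKM in K36M cells at D0, D2, and D7. It was at 16.4, 29.5, 16.5, and 26.4 RPKM in the PPARg libraries, at 22.4 and 35.8 RPKM in Ctrl cells, and at 20.7 and 32.9 RPKM in KD cells. Both DMSO libraries lay below all others. *Kdm4b* (NM_172132, 4610 bases, chr17:56465485-56542293, plus strand) was at 6.19, 7.72, and 7.98 RPKM in WT cells and 5.38, 8.03, and 7.30 RPKM in K36M cells. It was at 5.24, 5.40, 4.01, and 4.99 RPKM in the PPARg libraries, at 7.69 and 11.8 RPKM in Ctrl cells, and at 7.74 and 11.8 RPKM in KD cells. *Kdm4b* and *Kdm2b* were the lowest members in all but the KD libraries (5 and 7 libraries).

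**Figure D1:**
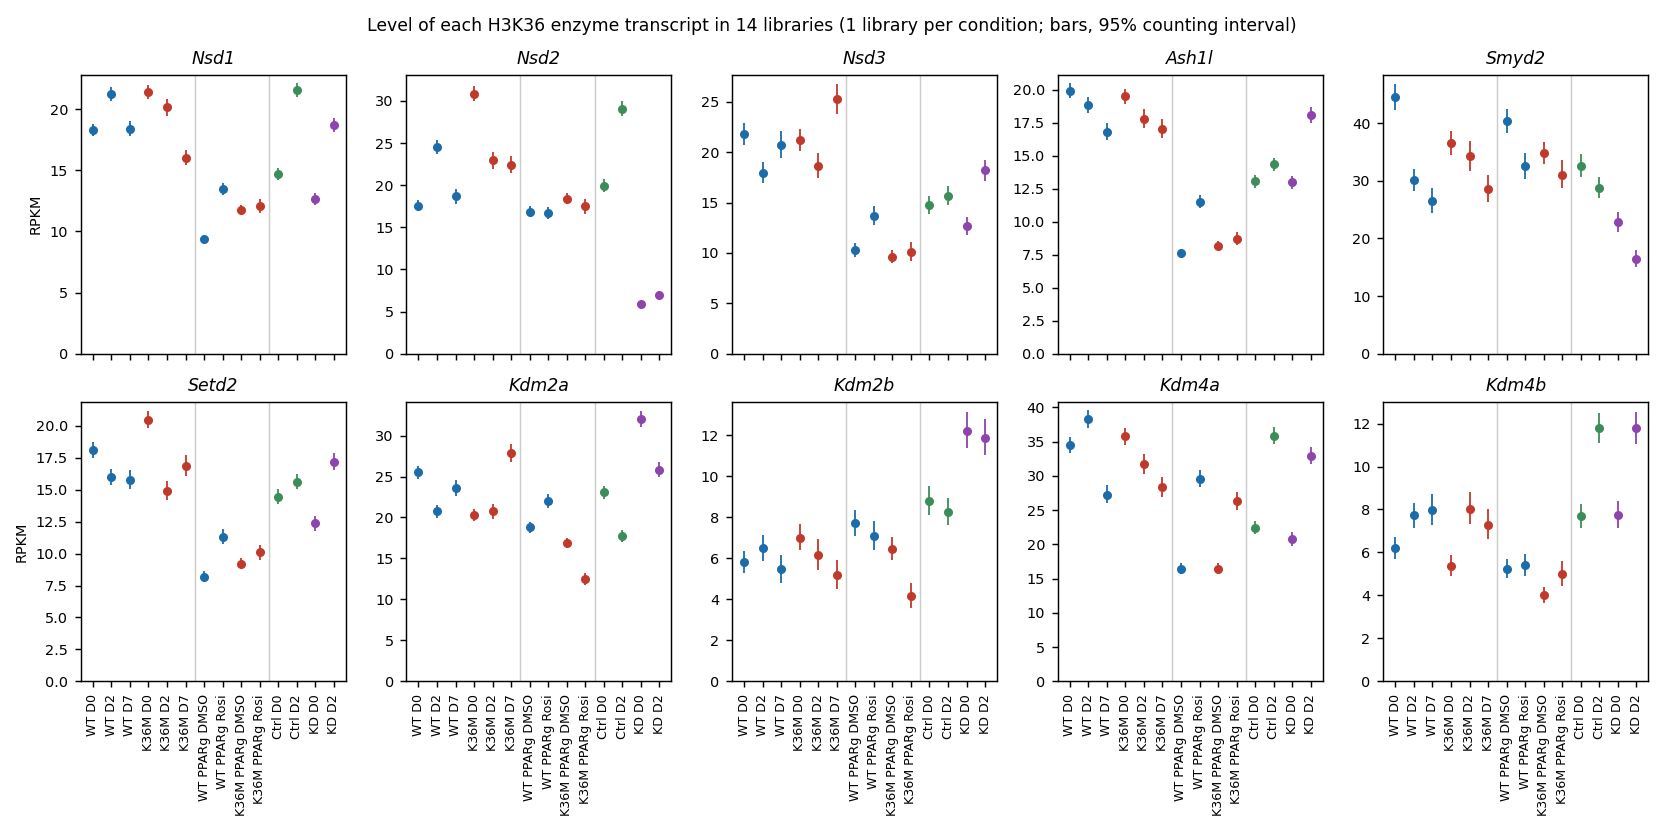
RPKM of each of the 10 members (vertical axes, linear, from 0) in 14 libraries (horizontal axes; blue WT, red K36M, green Ctrl, purple KD), with 95% counting intervals as bars and grey lines between the 3 experiments. *Nsd2* was at 5.85 and 7.01 RPKM in KD cells, *Kdm2a* and *Kdm2b* were highest there at D0, and *Ash1l* and *Setd2* were lowest in the 4 PPARg libraries.

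In KD cells, the targeted gene was lower and no other member was higher or lower by over 2-fold. *Nsd2* was at 5.85 RPKM against 19.9 RPKM in Ctrl cells at D0, a log2 ratio of -1.77 (95% counting interval, -1.89 to -1.65) or 3.41-fold lower. At D2 it was at 7.01 against 29.0 RPKM, a log2 ratio of -2.05 (-2.16 to -1.94) or 4.14-fold lower. The knockdown label was therefore borne out by the target in both libraries. The count was 1 of 10 members over 2-fold at each time, where 17.4% (D0) and 14.4% (D2) of all genes were over 2-fold in either direction among those that reached 1 RPKM in either library. At 1.5-fold the count was 1 of 10 at D0 and 2 of 10 at D2, against 34.1% and 32.1% of all genes. In bulk RNA, a lower level in every cell and fewer cells that express a gene cannot be told apart.

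The other 9 members lay between -0.81 and 0.54 on the log2 scale over both times. The remaining NSD enzymes did not stand higher as a pair. *Nsd1* had log2 ratios of -0.22 (-0.29 to -0.15) at D0 and -0.21 (-0.27 to -0.15) at D2. *Nsd3* had -0.23 (-0.36 to -0.09) at D0 and 0.21 (0.09 to 0.33) at D2, and its long form had -0.26 and 0.35. The summed RPKM of *Nsd1*, *Nsd2*, and the short form of *Nsd3* was 31.1 in KD against 49.4 in Ctrl cells at D0 and 43.9 against 66.3 at D2. *Nsd2* made up 18.8% and 16.0% of that sum in KD cells and 30.5% to 46.2% in the other 12 libraries. With the long form of *Nsd3*, which holds the SET domain, the sum was 26.2 against 43.8 at D0 and 38.7 against 60.9 at D2. The share of *Nsd2* was then 22.3% and 18.1% in KD cells and 34.4% to 52.1% in the other 12 libraries. *Ash1l* had log2 ratios of -0.01 (-0.09 to 0.07) and 0.33 (0.26 to 0.40), and *Setd2* had -0.22 (-0.31 to -0.13) and 0.14 (0.06 to 0.22).

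**Figure D2:**
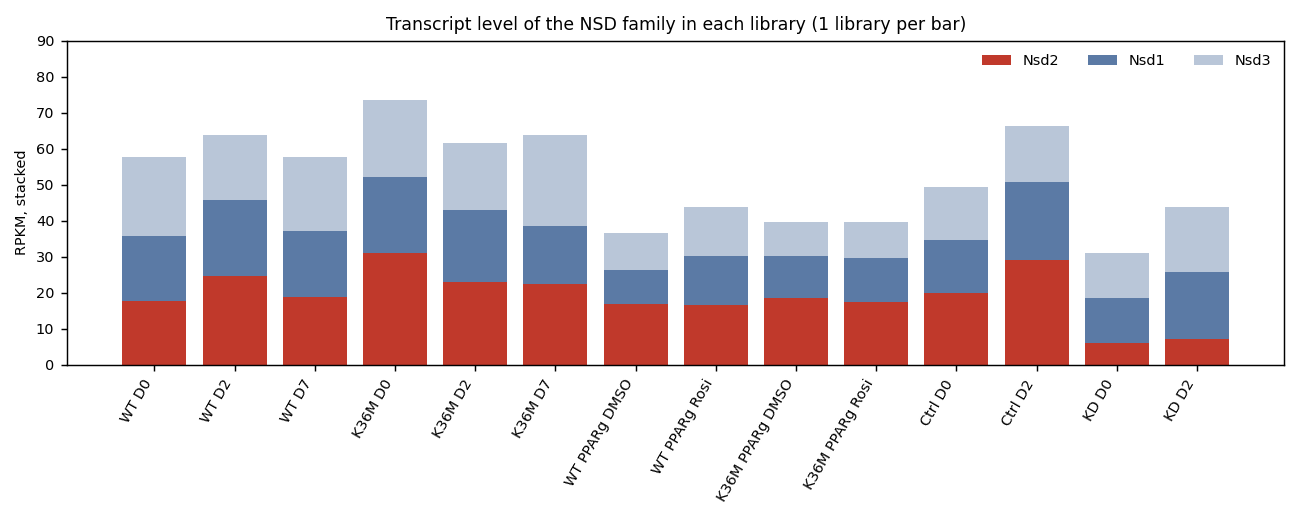
Stacked RPKM (vertical axis, from 0) of *Nsd2* (red), *Nsd1* (dark blue), and the short form of *Nsd3* (light blue) in each of 14 libraries, without error bars. The stack reached 31.1 RPKM in KD and 49.4 RPKM in Ctrl cells at D0, and *Nsd1* and *Nsd3* together did not make up the missing *Nsd2*.

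*Smyd2* was the only other methyltransferase with the same sign at both times and a size near 1.5-fold. It was at 22.8 against 32.6 RPKM at D0 (log2 ratio -0.51, -0.66 to -0.37) and at 16.5 against 28.8 RPKM at D2 (-0.81, -0.97 to -0.64), the latter over 1.5-fold. *Kdm2a* stood higher in KD cells, at 32.0 against 23.1 RPKM at D0 (0.47, 0.40 to 0.54) and at 25.8 against 17.7 RPKM at D2 (0.54, 0.47 to 0.62). *Kdm2b* stood higher by a similar ratio, at 12.2 against 8.79 RPKM (0.48, 0.32 to 0.63) and at 11.9 against 8.26 RPKM (0.53, 0.37 to 0.68). Both H3K36me2 demethylases thus lay 1.39-fold to 1.46-fold higher in KD cells, under the 1.5-fold threshold. *Kdm4a* had -0.11 and -0.12, and *Kdm4b* had 0.01 (-0.15 to 0.17) and -0.00 (-0.13 to 0.13).

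KD cells also differed from Ctrl cells in cell state. Of 10 proliferation genes, 3 were over 2-fold lower and none over 2-fold higher at D0, against 17.4% of all genes in either direction. They were *Ccna2* (13.8 against 53.3 RPKM, log2 ratio -1.95), *Mki67* (13.9 against 48.7 RPKM, -1.81), and *Ccnb1* (16.0 against 52.8 RPKM, -1.72). These encode cyclins and a proliferation antigen. At D0 *Top2a* (40.2 against 72.1 RPKM), *Cdk1* (20.3 against 36.2 RPKM), and *Rrm2* (53.9 against 58.9 RPKM) were lower by less than 2-fold. *Mcm2* (127 against 67.1 RPKM), *Pcna* (60.5 against 42.0 RPKM), *Mcm5* (54.8 against 47.8 RPKM), and *Mcm6* (81.4 against 76.8 RPKM) were higher. The list's median was -0.48 at D0 and 0.20 at D2, beside -0.00 and -0.05 for all genes. No proliferation gene was over 2-fold at D2, against 14.4% of all genes. Summed brown adipocyte markers were 33.7 in KD and 27.5 RPKM in Ctrl cells at D0 and 52.3 against 1324 RPKM at D2. Of these genes at D0, *Pparg* was higher in KD cells (26.4 against 12.5 RPKM) and *Fabp4* lower (7.16 against 14.8 RPKM). At D2 *Fabp4* alone had 34.5 against 1269 RPKM. Summed preadipocyte markers were 463 in KD against 1804 RPKM in Ctrl cells at D0 and 48.2 against 117 RPKM at D2. Within that list at D0, *Col1a1* (263 against 1678 RPKM) and *Pdgfra* (1.51 against 22.9 RPKM) were lower in KD cells and *Dlk1* (171 against 38.1 RPKM) was higher. The part of proliferation and of cell state in the members' ratios was not tested.

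**Figure D3:**
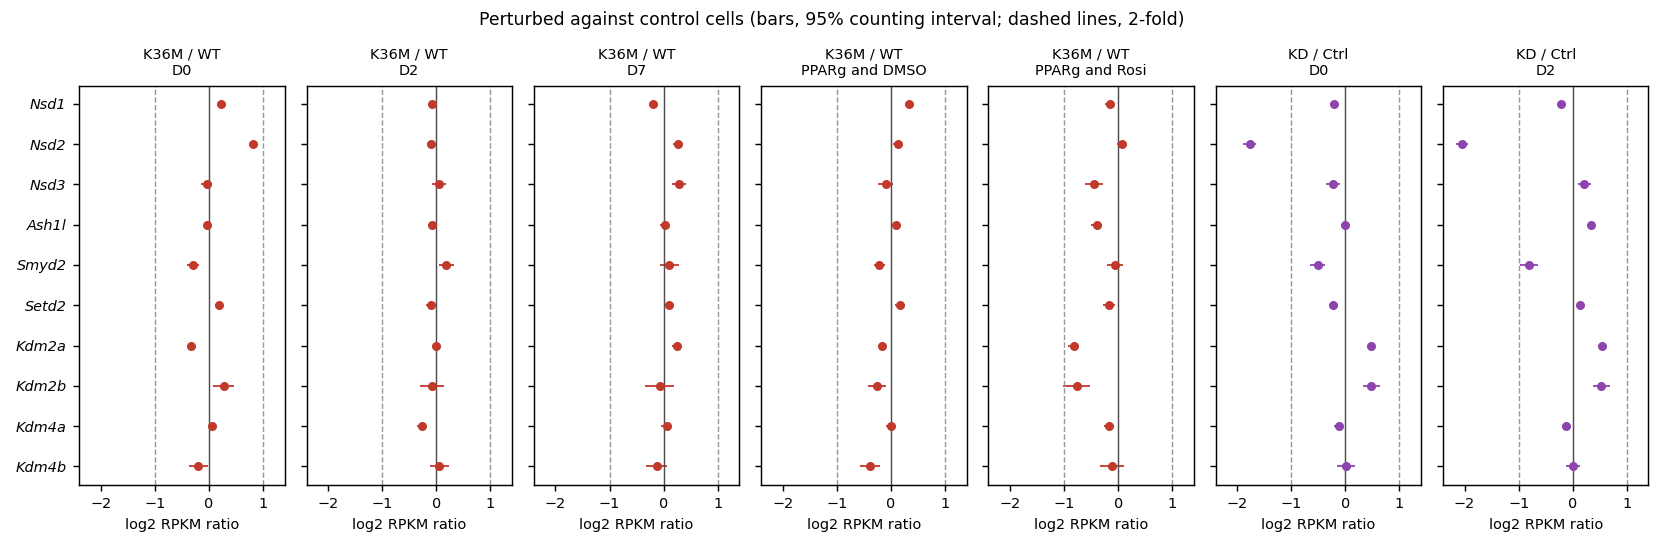
Log2 RPKM ratio (horizontal axes) of each of 10 members (rows) in 5 comparisons of K36M with WT cells (red) and 2 of KD with Ctrl cells (purple), with 95% counting intervals as bars and dashed lines at 2-fold. Only *Nsd2* in KD cells lay outside the dashed lines, at -1.77 and -2.05.

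In K36M cells, no member was over 2-fold higher or lower than in WT cells in any of 5 comparisons. This was 0 of 10 members against 11.4% of all genes at D0, 15.6% at D2, 20.2% at D7, 8.20% with PPARγ and DMSO, and 19.1% with PPARγ and Rosi. At 1.5-fold it was 1 of 10 members against 24.8% of all genes at D0, 0 of 10 against 29.9% at D2, 0 of 10 against 37.3% at D7, and 0 of 10 against 15.2% with DMSO. With Rosi it was 2 of 10 against 37.7%. All 10 members were expressed above 4 RPKM in every library, whereas the shares over all genes include genes near 1 RPKM. Among genes that reached 4 RPKM in either library, a limit chosen after the data were seen, 4.18% to 25.9% were over 2-fold across the 15 comparisons within experiments.

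The member over 1.5-fold at D0 was *Nsd2*, at 30.9 RPKM in K36M against 17.5 RPKM in WT cells (log2 ratio 0.81, 0.74 to 0.89). The difference was not seen at D2, where *Nsd2* was at 23.0 against 24.5 RPKM (-0.10, -0.18 to -0.01), and smaller at D7, at 22.4 against 18.7 RPKM (0.26, 0.17 to 0.36). With PPARγ it was 0.12 (0.05 to 0.20) with DMSO and 0.07 (-0.03 to 0.17) with Rosi. On the length-class scale these 5 values were 0.78, -0.11, 0.15, 0.09, and 0.45, so the value with Rosi depended on the scale. An excess of *Nsd2* over 1.5-fold was seen only at D0 of the first experiment. The unstimulated PPARg cells, another pair of WT and K36M libraries, did not show it. The study describes that pair as sub-confluent cells with ectopic PPARγ, so it is not a repeat of the D0 pair. A second *Nsd2* transcript (NM_001177884, 7790 bases) had 15.6 against 9.90 RPKM at D0, a log2 ratio of 0.66. This transcript was nearly level at D7, at 10.4 in K36M against 10.1 RPKM in WT cells. With PPARγ it was higher in K36M cells with DMSO (6.78 against 5.60 RPKM) and lower with Rosi (6.23 against 7.12 RPKM). The D7 difference was thus not shared by this transcript, and no direction is given for *Nsd2* with Rosi. At D0, 2 of 10 proliferation genes were also over 2-fold higher in K36M cells, against 11.4% of all genes in either direction. The 2 were *Mcm5* (59.9 against 24.6 RPKM, 1.29), a replication helicase subunit, and *Rrm2* (84.5 against 39.5 RPKM, 1.10), a subunit of ribonucleotide reductase. The median of that list was 0.60 beside 0.09 for all genes, and its part in the *Nsd2* value was not tested.

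The other members at D0 lay between -0.33 and 0.27. *Kdm2a* had a log2 ratio of -0.33 (-0.40 to -0.26), *Smyd2* -0.29 (-0.40 to -0.18), *Nsd1* 0.23 (0.17 to 0.28), *Kdm2b* 0.27 (0.08 to 0.46), and *Setd2* 0.18 (0.11 to 0.25). None of these 5 kept its sign in all 5 comparisons. At D2 the 10 members lay between -0.27 (*Kdm4a*) and 0.19 (*Smyd2*), and at D7 between -0.20 (*Nsd1*) and 0.29 (*Nsd3*). Summed brown adipocyte markers at D7 were 195 RPKM in K36M against 3176 RPKM in WT cells, so the members differed little between cell populations that differed widely in adipocyte transcripts.

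With PPARγ and Rosi, the H3K36me2 demethylases were lower in K36M cells. *Kdm2a* was at 12.5 against 22.0 RPKM, a log2 ratio of -0.82 (-0.92 to -0.72). *Kdm2b* was at 4.17 against 7.09 RPKM, a log2 ratio of -0.76 (-1.02 to -0.51). With DMSO the same ratios were -0.16 (-0.23 to -0.08) and -0.26 (-0.43 to -0.09). Genes of 6 kb or longer had a median of -0.38 in the Rosi comparison, and less the median of its length class *Kdm2a* had -0.44 and *Kdm2b* -0.65, under and over 1.5-fold. The signs of *Kdm2a* and *Kdm2b* here were the opposite of those in KD cells. *Nsd3* had -0.44 (-0.61 to -0.27) and *Ash1l* -0.40 (-0.50 to -0.30), or -0.33 and -0.02 on the length-class scale. *Nsd1* and *Setd2* had -0.15 and -0.17, which became 0.23 and 0.21 on the length-class scale, so no direction is given for them.

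The ligand itself left all members within 2-fold, 0 of 10 in WT cells against 15.0% of all genes and 0 of 10 in K36M cells against 16.8%. At 1.5-fold there were 2 of 10 in each, against 33.1% and 36.1%. *Kdm4a* was the member over 1.5-fold in both, at 29.5 RPKM with Rosi against 16.4 RPKM with DMSO in WT cells (0.85, 0.76 to 0.94) and at 26.4 against 16.5 RPKM in K36M cells (0.68, 0.58 to 0.78). On the length-class scale these were 0.68 and 0.77. *Ash1l* was over 1.5-fold in WT cells (0.60, 0.50 to 0.69), or 0.34 on the length-class scale, and had 0.09 (-0.01 to 0.19) in K36M cells. *Kdm2b* was over 1.5-fold lower in K36M cells (-0.63, -0.88 to -0.39) and had -0.12 (-0.31 to 0.06) in WT cells. On the length-class scale these were -0.56, under 1.5-fold, and -0.16. *Nsd2* had -0.01 (-0.10 to 0.07) and -0.07 (-0.16 to 0.02), or -0.27 and 0.06 on the length-class scale. Summed brown adipocyte markers were 176 RPKM with DMSO and 2842 RPKM with Rosi in WT cells. Of these, *Pparg*, which is also expressed ectopically here, had 60.2 and 56.8 RPKM, and *Fabp4* had 112 and 2505 RPKM.

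**Figure D4:**
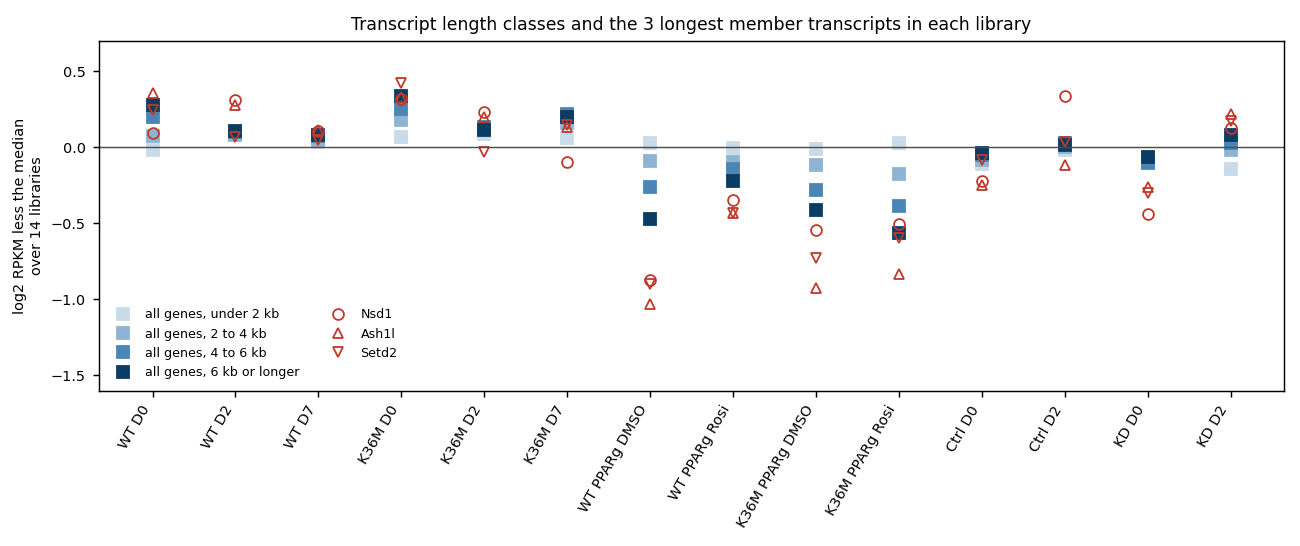
Median log2 RPKM relative to each gene's median over 14 libraries (vertical axis) for all genes in 4 classes of transcript length (squares, darker for longer) and for *Nsd1*, *Ash1l*, and *Setd2* (open red symbols) in each library (horizontal axis). In the 4 PPARg libraries the class of 6 kb or longer lay at -0.56 to -0.22, and the 3 long members lay below it, apart from *Nsd1* in K36M cells with Rosi (-0.50 against -0.56).

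During adipogenesis from D0 to D2, no member passed 2-fold in any of 4 cell populations. The counts were 0 of 10 against 26.7% of all genes in WT, 21.5% in K36M, 27.4% in Ctrl, and 28.6% in KD cells. At 1.5-fold they were 0 of 10 in WT (44.3% of all genes) and K36M cells (42.3%) and 2 of 10 in Ctrl (48.3%) and KD cells (50.5%). The 2 genes were *Kdm4a* and *Kdm4b* in both. These counts depended on the scale. On the length-class scale *Kdm4a* in Ctrl cells stayed over 1.5-fold (0.60). *Kdm4b* in Ctrl cells (0.54) and *Kdm4a* and *Kdm4b* in KD cells (0.52 and 0.45) fell under it. *Nsd2* (0.66) and *Smyd2* (-0.68) in WT cells and *Kdm4b* in K36M cells (0.70) were over 1.5-fold on that scale. *Kdm4a* had log2 ratios of D2 to D0 of 0.68 (0.60 to 0.76) in Ctrl and 0.67 (0.58 to 0.76) in KD cells, and 0.15 (0.08 to 0.22) in WT and -0.17 (-0.26 to -0.09) in K36M cells. *Kdm4b* was higher at D2 in all 4 populations, with 0.32 (0.16 to 0.48) in WT, 0.58 (0.39 to 0.76) in K36M, 0.62 (0.48 to 0.76) in Ctrl, and 0.61 (0.46 to 0.75) in KD cells.

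*Nsd2* was higher at D2 than at D0 in WT (0.48, 0.41 to 0.56), Ctrl (0.54, 0.47 to 0.61), and KD cells (0.26, 0.12 to 0.41, or 0.07 on the length-class scale). It was lower in K36M cells (-0.43, -0.50 to -0.35, or -0.22 on the length-class scale). The K36M value shares its libraries with the comparisons of K36M and WT cells above and is the same excess at D0 seen from the other side. *Smyd2* had -0.57 (-0.69 to -0.45) in WT, -0.09 (-0.23 to 0.05) in K36M, -0.18 (-0.31 to -0.05) in Ctrl, and -0.47 (-0.64 to -0.30) in KD cells. *Kdm2a* was lower at D2 in WT (-0.30), Ctrl (-0.38), and KD cells (-0.31) and had 0.03 (-0.05 to 0.12) in K36M cells. On the length-class scale these were -0.12, -0.45, -0.50, and 0.24. *Nsd3*, *Ash1l*, and *Setd2* had 0.53, 0.48, and 0.48 in KD cells against 0.09, 0.14, and 0.12 in Ctrl cells. *Nsd1* had 0.56 in both.

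**Figure D5:**
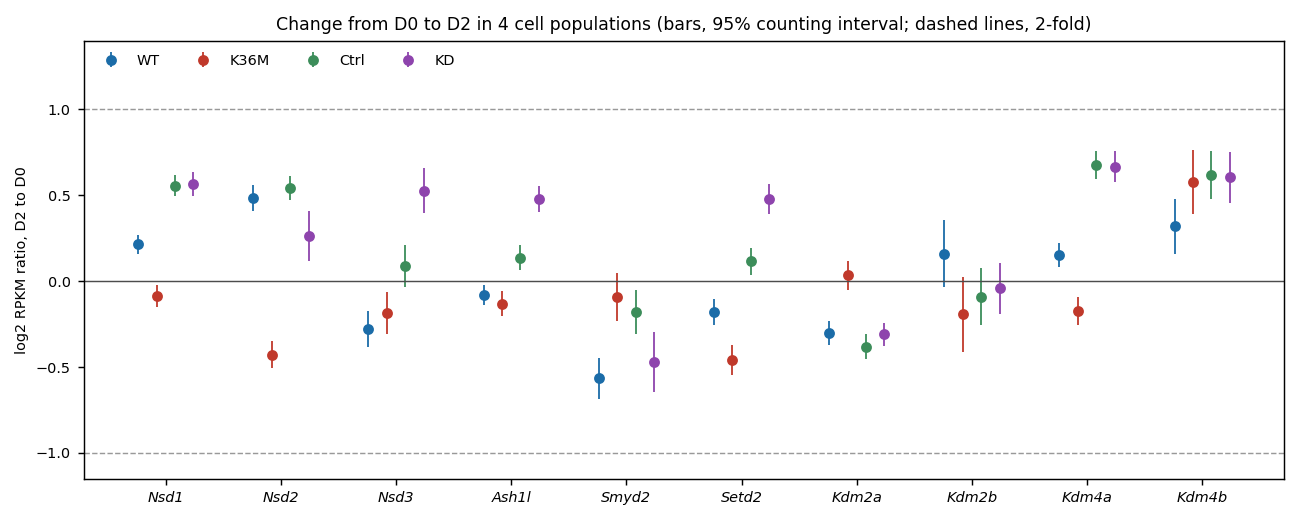
Log2 ratio of RPKM at D2 to D0 (vertical axis) of each member (horizontal axis) in WT (blue), K36M (red), Ctrl (green), and KD cells (purple), with 95% counting intervals as bars and dashed lines at 2-fold. *Kdm4b* lay above 0 in all 4 populations (0.32 to 0.62), and *Nsd2* lay above 0 in WT, Ctrl, and KD cells but at -0.43 in K36M cells.

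From D2 to D7 no member passed 1.5-fold. The counts were 0 of 10 over 2-fold against 20.8% of all genes in WT and 22.7% in K36M cells, and 0 of 10 over 1.5-fold against 38.4% and 41.2%. *Kdm4a* had -0.49 (-0.57 to -0.40) in WT and -0.16 (-0.26 to -0.06) in K36M cells, and *Nsd2* had -0.39 (-0.48 to -0.31) and -0.03 (-0.13 to 0.06). *Nsd3* had 0.21 and 0.44, and *Kdm2a* had 0.19 and 0.43. Over all 15 comparisons within experiments, 2 of 150 member log2 ratios were over 2-fold and 14 were over 1.5-fold. *Kdm4a* made up 4 of the 14 and *Nsd2* 3, while *Nsd1*, *Nsd3*, and *Setd2* were never over 1.5-fold.

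Ctrl cells, with a lentiviral control shRNA, and WT cells, with retroviral WT H3.3, show how far members differ between 2 control populations. Ctrl against WT cells gave 0 of 10 members over 2-fold at D0 (22.2% of all genes) and at D2 (11.2%). At 1.5-fold it gave 3 of 10 at D0 (45.2%) and 1 of 10 at D2 (25.4%). The 3 at D0 were *Kdm2b* (8.79 against 5.81 RPKM, 0.60), *Ash1l* (13.1 against 19.9 RPKM, -0.61), and *Kdm4a* (22.4 against 34.4 RPKM, -0.62). On the length-class scale these were 0.84, -0.22, and -0.28. At D2 it was *Kdm4b* (11.8 against 7.72 RPKM, 0.61). The median of all genes was -0.24 at D0, and 5 of 10 proliferation genes were over 2-fold higher in Ctrl cells. The *Kdm2b* difference between these control populations was larger than that between KD and Ctrl cells at D0 (0.48), and the *Nsd2* difference was 0.18 at D0 and 0.24 at D2. On the length-class scale *Nsd2* had 0.58 and 0.36, and *Kdm4b* at D0 went from 0.31 to 0.66, over 1.5-fold. A second *Nsd2* transcript had -0.17 and -0.07 in the same comparisons, so no direction is given for it.

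Across the 12 libraries without the knockdown, *Nsd1*, *Nsd3*, *Ash1l*, and *Setd2* varied together, with Pearson r of log2(RPKM + 1) from 0.78 to 0.96 over the 6 pairs. *Setd2* and *Ash1l* were the closest pair. *Kdm4a* had r of 0.81 with *Setd2*, whereas *Smyd2* had -0.14 and *Kdm2b* 0.00. These libraries share cell populations and experiments, and the PPARg libraries were low for long transcripts, so r is a description of 12 libraries. The genes most like *Nsd2* by the same measure, among 8585 genes with a mean of at least 5 RPKM, included *Gtpbp1* (r = 0.92), a GTP-binding protein gene, and *Rfwd3* (0.91), a ubiquitin ligase gene of the DNA damage response.

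Of 11 other genes for enzymes linked to H3K36 methylation (*Setmar*, *Setd3*, *Setd5*, *Smyd1*, *Smyd3*, *Prdm9*, *Kdm4c*, *Kdm4d*, *Kdm8*, *Riox1*, and *Riox2*), 8 or 9 passed the RPKM filter in each comparison. None of these was over 2-fold in the 7 comparisons of perturbed and control cells, where 8.20% to 20.2% of all genes were, and 2 were over 2-fold higher at D2 than at D0 in KD cells (28.6% of all genes). *Smyd1*, a gene of muscle that did not pass the filter, was lower in K36M cells at D7 (0.099 against 0.59 RPKM, 4 and 26 reads, log2 ratio -2.58, -4.55 to -1.05) and with Rosi (0.048 against 0.78 RPKM, 2 and 43 reads). Their median log2 ratio in KD cells was 0.02 (D0) and -0.14 (D2), and it lay between -0.06 and 0.13 in K36M cells. *Setd5*, a SET domain gene, was the most abundant of them, at 15.4 to 39.3 RPKM, and *Kdm4d* was at most 0.15 RPKM. *Setd5* was higher in KD than in Ctrl cells at both times, at 39.3 against 23.2 RPKM at D0 (0.76, 0.69 to 0.83) and at 38.5 against 23.1 RPKM at D2 (0.74, 0.67 to 0.80). These ratios were over 1.5-fold and above those of all 10 members in KD cells.

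Of 19 genes for proteins that read methylated H3K36 or guide its enzymes, few were over 2-fold. In KD cells 1 was higher and 1 lower at D0, *Brpf1* (21.7 against 10.8 RPKM, 1.01), the scaffold of an acetyltransferase complex with a PWWP domain, and *Phf19* (1.61 against 3.95 RPKM, -1.29), a Polycomb-like protein that binds H3K36me3. At D2 the Polycomb-like gene *Mtf2* was higher (22.8 against 9.96 RPKM, 1.19). In K36M cells *Dnmt3b* was lower at D2 (0.39 against 1.38 RPKM, -1.81, from 20 and 107 reads). At D7 *Phf1*, another Polycomb-like gene, was higher (14.5 against 5.07 RPKM, 1.52) and *Dnmt3a*, a DNA methyltransferase that binds H3K36me2, lower (5.26 against 10.9 RPKM, -1.05). With Rosi *Pwwp3a* was lower (5.67 against 12.3 RPKM, -1.12), with *Mki67* lower (-1.24) and *Rrm2* higher (1.03) among proliferation genes. No gene of the 19 was over 2-fold with DMSO. At most 2 of 18 or 19 tested genes were over 2-fold in any of these 7 comparisons, a share at or under that of all genes.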

How the data were processed

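RNA-Seq values of 14 libraries were used, 1 per condition. The authors deposited RPKM for 29082 RefSeq transcripts per library, and the submitters' processing notes name CASAVA 1.8.2, SICER, and the mm9 build. The program that counted reads is not given in the sources used here. The ChIP-Seq of the series was not analysed here. Each RPKM was resolved into whole reads, which worked for 26945 (99.9963%) of the 26946 transcripts that were listed above 0 in 2 or more libraries (tolerance 0.0001 reads). Symbols were matched for 28436 transcripts (97.8%), and each gene took its transcript with the highest mean RPKM, which gave 23109 genes. Coordinates are from GENCODE M1 on mm9.

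With 1 library per condition the ratio of RPKM was given with no test. Its interval is a 95% Clopper-Pearson interval of the share of a gene's reads held by the first library, and a gene entered a comparison when it reached 1 RPKM in either library. Genes were called over 2-fold, with 1.5-fold and 3-fold as alternatives. Other alternatives were a pseudocount of 1, no filter, the lowest or the summed transcript, and scaling by the median ratio. Scaling within length classes (limits of 2, 4, and 6 kb) and the limit of 4 RPKM were chosen after seeing the data. The members and lists were chosen with earlier results of these data known. All members are named. From each list, at most 3 genes with the largest ratio over 2-fold are named in the comparisons of perturbed with control cells, and the 3 genes most like *Nsd2* by Pearson r are named, apart from 1 that is not reported here. *Setd5*, *Smyd1*, *Kdm4d*, *Fabp4*, *Pparg*, and 3 preadipocyte genes were added after their values were seen. So were, in KD cells at D0, *Mcm2*, *Mcm5*, *Mcm6*, *Pcna*, *Top2a*, *Cdk1*, and *Rrm2*. Scripts for reads, calls, and intervals were tested on simulated data (Python 3.11.15, scipy 1.17.1).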

Additional observations from a re-analysis of the deposited data

Results flagged for a closer look

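In 16 cases a member's log2 ratio had opposite signs in 2 settings of the same contrast, each with a counting interval that left out 0. With 1 library per condition none of these differences was tested, and the intervals cover counting error only. K36M against WT cells gave a log2 ratio that was larger at D0 than at D2 by 0.91 for *Nsd2* (0.80 to 1.02), 0.30 for *Nsd1*, and 0.28 for *Setd2*, and for *Smyd2* the difference was -0.48. The same 4 libraries give the contrast of D2 to D0 in WT less K36M cells, which was 0.91 for *Nsd2*, 0.30 for *Nsd1*, and 0.32 for *Kdm4a*. Between D0 and D7 the K36M ratio differed by 0.42 for *Nsd1* and -0.57 for *Kdm2a*, and between D2 and D7 by -0.36 for *Nsd2*.

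With PPARγ, the K36M ratio with DMSO less that with Rosi was 0.48 for *Nsd1*, 0.50 for *Ash1l*, and 0.33 for *Setd2*. The Rosi response in WT less that in K36M cells was 0.66 for *Kdm2a*. The KD ratio at D0 less that at D2 was -0.44 for *Nsd3* and -0.36 for *Setd2*. Less the median of each length class, 12 of the 16 kept opposite signs. The other 4 had equal signs, and these were *Nsd1* and *Setd2* between DMSO and Rosi, *Nsd1* in the D2 to D0 contrast, and *Kdm2a* in the Rosi response.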

How the results depend on the processing

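The calls over 2-fold were the same without the RPKM filter, with a pseudocount of 1, with both scalings, with the lowest or summed transcript, at 3-fold, and with a counting interval required to leave out 1. At 1.5-fold the count of members went from 0 to 1 for K36M against WT cells at D0, from 0 to 2 with PPARγ and Rosi, from 1 to 2 for KD at D2, from 0 to 2 for Rosi in WT and in K36M cells and for D2 against D0 in Ctrl and in KD cells, from 0 to 3 for Ctrl against WT cells at D0, and from 0 to 1 at D2. The log2 ratio of *Nsd2* in KD cells was -1.61 (D0) and -1.91 (D2) with a pseudocount of 1, and -1.39 and -1.75 with its lowest transcript, NM_001177884. Of 170 log2 ratios, 168 stayed within their counting interval with the pseudocount, 130 with the median scaling, and 98 with the length-class scaling, which changed 24 signs. Of 68 ratios of genes with several transcripts, 47 stayed within it with the lowest transcript (15 signs changed) and 68 with the sum. No call over 2-fold reversed. Without replicates, values between cultures of 1 condition are unknown, and no paired analysis was possible because each condition has 1 library.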
